A study of Mus musculus with 18 samples.

Results

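Mouse embryonic fibroblasts exposed to TGF-β1 for 1 h were compared between cultures labelled NFI-C (Nfic) knock-out and wild-type cultures. The comparison used the 3 arrays titled as knock-out after 1 h of TGF-β1 and the 3 arrays titled as wild type after 1 h, which are 6 of the 18 arrays of the study. Membership was decided by the sample titles alone, and no measured value entered the choice.

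NFI-C is 1 of 4 members of the nuclear factor I family of DNA-binding transcription factors, with NFI-A, NFI-B and NFI-X, and mice without it are known for defects of tooth root formation. TGF-β1 is a secreted growth factor that binds a receptor kinase pair, which phosphorylates the signalling proteins SMAD2 and SMAD3. These enter the nucleus with SMAD4 and switch on early target genes, several of which encode inhibitors of the same pathway, and fibroblasts later answer with matrix production.

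The study took primary fibroblasts from 3 knock-out and 3 wild-type embryos at 14 days, after removal of the head and the liver. Cells of each embryo were kept for several hours in a serum-free medium with an albumin supplement and insulin, transferrin and selenium. They were then given 12.5 ng/ml TGF-β1 for 1 h or 10 h or were left untreated, which makes 6 groups of 3 arrays. All cells of an embryo carried the same genotype, which the labels give as knock-out or wild type without naming the allele, and the strain and sex were not stated there. The expression values were log2 values on mouse arrays, 1 value per probe set. The brightest probe set stood for each gene, and 13679 of 18194 genes passed the filter on low values and were tested. Every p-value below comes from limma. A p called adjusted was corrected over the 13679 genes by the Benjamini-Hochberg procedure, and a difference is the mean of the knock-out arrays minus that of the wild-type arrays.

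Arrays of the same group correlated at 0.990 to 0.995 at 1 h, and arrays of different genotype at 0.990 to 0.995 as well. The 3′ minus 5′ probe set difference of actin was 0.22, 0.15 and 0.38 log2 units in the arrays labelled knock-out and 0.33, 0.27 and 0.35 in the wild-type arrays, and that of Gapdh was -0.21, -0.26 and -0.02 against -0.10, -0.22 and -0.15. The fibroblast marker list of 19 tested genes had mean levels of 11.3, 11.1 and 11.4 log2 units in the knock-out arrays and 11.3, 11.3 and 11.5 in the wild-type arrays. Of these markers 8 were higher and 11 lower in knock-out, with a median difference of -0.08. In 3 of them all knock-out arrays lay above all wild-type arrays and in 3 below, against 8.19% and 6.11% of all tested genes. An unadjusted p under 0.05 by limma was reached by 3, all lower, against 2.64% of all genes. Xist, the RNA of X inactivation, stood between 10.63 and 11.29 on all 6 arrays, and all 9 probe sets of 3 Y-linked genes lay between 2.83 and 3.53, below the 40th percentile of their arrays.

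The targeted gene did not separate the groups. The brightest Nfic probe set read 10.65, 10.32 and 10.72 in the arrays labelled knock-out and 10.77, 10.39 and 10.59 in the wild-type arrays, a difference of -0.02 ± 0.16 (SE; adjusted p = 0.997 by limma). The other 4 Nfic probe sets differed by 0.08, -0.14, 0.06 and 0.07. Which exon was deleted, and whether any of these probes lies within it, was not stated in the labels, so the array neither bears out nor contradicts the labels, and the arrays are called knock-out as labelled. The other family members had differences of 0.24 ± 0.20 for Nfia, 0.16 ± 0.23 for Nfib and -0.03 ± 0.17 for Nfix on their brightest probe sets. Dimmer probe sets reached 0.63 ± 0.17 and 0.68 ± 0.25 for Nfia, and 0.62 ± 0.21 and 0.83 ± 0.34 for Nfib, while the others of these genes lay between -0.17 and 0.35. Of the 20 tested genes nearest to Nfic on chromosome 10, 10 on each side, 4 had all knock-out arrays above all wild-type arrays (Celf5, Gna11, Tle5 and Tle2) and 2 had all below (Tjp3 and Tbxa2r). Over all tested genes 8.19% lay above and 6.11% below in this way. The RNA-binding protein gene Celf5, which neighbours Nfic, read 5.65, 5.41 and 5.41 in the knock-out arrays and 4.89, 4.91 and 5.17 in the wild-type arrays. In untreated cells and after 10 h it differed by 0.52 and -0.06, with overlapping groups. Gna11, Tle5, Tle2 and Tbxa2r overlapped in both of these conditions too, while Tjp3 lay wholly below in untreated cells and overlapped after 10 h.

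No gene passed an adjusted p of 0.05 between the genotypes after 1 h of TGF-β1: limma called 0 of 13679 genes (0%), and the smallest adjusted p was 0.120. An unadjusted p under 0.05 was reached by 846 genes (6.18%), of which 485 were higher (3.55%) and 361 lower (2.64%) in knock-out, where 684 would be reached by chance if no gene differed. The direction of the few most different genes is therefore a description of these 6 cultures. The precision was limited by the 3 arrays per group, and the spread was pooled over the 18 arrays, with those of the same embryo treated as independent. In that fit the median 95% confidence interval extended 0.27 log2 units either side of the difference. Of the intervals 96.3% lay wholly within a 2-fold change. Differences of at least 1 log2 unit were seen for 3 genes that were higher (0.0219%) and 3 that were lower (0.0219%). The same 18-array fit also called 0 genes with knock-out minus wild type in untreated cells (460 at an unadjusted p under 0.05, 3.36%) and 0 genes after 10 h (721 at that p, 5.27%).

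The genes that stood highest in knock-out by p-value were Nnat, Ppp1r3c, Sntb2, Tinagl1, Angpt4, Cadm4, Mmp2, Cdh3, Mybl1 and Htra1. Nnat encodes neuronatin, a small membrane protein from an imprinted gene that is known from developing brain and pancreas. It read 7.60, 7.86 and 8.0 in knock-out and 6.81, 6.75 and 6.50 in wild type, so the lowest knock-out culture stood above the highest wild-type culture. The means were 7.82 ± 0.21 and 6.69 ± 0.17 (SD, n = 3 each), a 2.19-fold difference of 1.13 ± 0.18 log2 units (95% interval 0.75 to 1.52; adjusted p = 0.120 by limma). Ppp1r3c encodes a regulatory subunit that brings protein phosphatase 1 to glycogen and favours glycogen synthesis. It read 6.95, 6.16 and 6.37 in knock-out and 5.55, 4.80 and 5.30 in wild type. The groups did not overlap, and the difference of 1.28 ± 0.21 (2.43-fold, 95% interval 0.83 to 1.73) was the largest upward difference of all tested genes.

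The promoters of these leading genes are shown because NFI proteins are known to bind the palindrome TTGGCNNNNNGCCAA, or with lower affinity its single arm TTGGC. They are the 250 bases before the annotated start from RefSeq (GRCm38.p6), written 5′ to 3′ on the gene's own strand, with TTGGC, or its reverse complement, in capitals. The Nnat stretch is chr2:157559828-157560077 on the plus strand and the Ppp1r3c stretch is chr19:36736605-36736854 on the minus strand.
Nnat: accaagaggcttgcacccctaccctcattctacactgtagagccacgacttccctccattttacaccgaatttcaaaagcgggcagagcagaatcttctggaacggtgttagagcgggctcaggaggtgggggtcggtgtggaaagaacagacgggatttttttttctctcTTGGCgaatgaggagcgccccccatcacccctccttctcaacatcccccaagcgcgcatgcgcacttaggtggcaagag
Ppp1r3c: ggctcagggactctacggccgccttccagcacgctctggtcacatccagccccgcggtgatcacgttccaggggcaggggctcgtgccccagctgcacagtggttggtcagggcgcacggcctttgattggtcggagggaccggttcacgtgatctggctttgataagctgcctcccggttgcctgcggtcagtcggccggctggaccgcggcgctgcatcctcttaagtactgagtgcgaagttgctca
Both strands were searched. Nnat held 1 such arm, which begins at position -79 from the start, and Ppp1r3c held none. Over all 32851 such windows the arm was present in 41.5% and the full palindrome in 0.0365%, and in the 13 windows of those among the 10 higher and 10 lower genes that had a promoter in the table (12 of 20 genes) the arm was present in 4 (30.8%) and the palindrome in 0. A match is a description of the letters, and its absence says only that they are not in this window.

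Tinagl1, a matrix protein related to cathepsins, read 9.42, 9.76 and 9.30 in knock-out and 8.69, 8.49 and 8.86 in wild type (0.81 ± 0.15). Angpt4, an angiopoietin ligand of the Tie2 receptor, read 8.04, 7.98 and 7.87 in knock-out and 7.33, 7.32 and 7.41 in wild type (0.61 ± 0.12), and a second probe set differed by 0.62. The gelatinase gene Mmp2, whose product cleaves type IV collagen, read 12.07, 11.99 and 11.93 in knock-out and 11.63, 11.50 and 11.59 in wild type (0.42 ± 0.09, 1.34-fold). These 3 genes had narrow groups that did not overlap, at intermediate to high signal. The adhesion molecule gene Cadm4 differed by 0.95 ± 0.19, the P-cadherin gene Cdh3 by 0.54 ± 0.11 and the secreted serine protease gene Htra1 by 0.50 ± 0.11, again with no overlap. Mybl1, a transcription factor gene of the Myb family, read 5.25, 5.51 and 5.52 in knock-out and 4.91, 4.70 and 4.80 in wild type. Sntb2 encodes β2-syntrophin, an adaptor of the dystrophin complex, and its brightest probe set differed by 0.56 ± 0.09 with no overlap. Its 3 dimmer probe sets differed by -0.03, 0.25 and 0.10, and the mean of its probe sets by 0.22.

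Ranked by size instead, Slc14a1, Sesn3, Parm1, Cadm4, Pax1 and Chodl followed Ppp1r3c and Nnat. The urea transporter gene Slc14a1 read 6.10, 6.15 and 6.60 in knock-out and 4.40, 4.79 and 6.44 in wild type, so that 1 wild-type culture stood within the knock-out range, and leaving out single cultures moved the difference between 0.67 and 1.69. Sesn3, a stress-inducible sestrin gene, read 10.26, 10.28 and 9.90 in knock-out and 9.40, 8.83 and 9.28 in wild type (0.97 ± 0.22), while its second probe set differed by 0.32. Pax1, a paired box regulator of the ventral somite that forms vertebrae, differed by 0.93 ± 0.26 with no overlap. Chodl, the chondrolectin gene, differed by 0.91 ± 0.27 with no overlap.

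The 10 genes that stood lowest by p-value were Trav9d-3, Meox1, Ccn3, Rab39b, Lcn8, Galnt4, Il1rl2, Gsdme, Nectin2 and Agbl3. Meox1, a homeobox gene of the somites, read 7.38, 7.99 and 7.45 in knock-out and 8.24, 8.27 and 8.47 in wild type (-0.72 ± 0.17; adjusted p = 0.555 by limma). Ccn3 encodes a matricellular protein of the same family as the TGF-β target CCN2, and it read 8.43, 8.04 and 8.39 in knock-out and 8.95, 9.10 and 8.79 in wild type (-0.66 ± 0.16, 1.58-fold lower). Its second probe set differed by -0.71. The small GTPase gene Rab39b differed by -0.80 ± 0.20 and Gsdme, the gasdermin E gene of lytic cell death, by -0.73 ± 0.20. A second Rab39b probe set of like signal differed by -0.09 ± 0.15, and a second one of Gsdme by -0.33 ± 0.21. On their brightest probe sets, in each of these 4 genes the highest knock-out culture stood below the lowest wild-type culture. The other 6 differed by between -0.30 and -0.53 on their brightest probe sets and did not overlap either. Further probe sets differed by -0.09 for Nectin2, at like signal, by -0.09 and -0.005 for Galnt4 and by -0.17 for Il1rl2. Those of Trav9d-3 differed by between -0.20 and -0.0008, and those of Agbl3 by between -0.08 and 0.17. Agbl3 read 4.05 to 4.54, near the 40th percentile (4.17 to 4.22), and stood wholly above in untreated knock-out cells (0.12). Trav9d-3 averaged 5.50 in knock-out and 5.36 in wild type in untreated cells, and 5.92 and 5.86 after 10 h. Lcn8 averaged 4.15 and 4.00 in untreated cells, and 4.19 and 4.13 after 10 h. For Galnt4 the means were 7.92 and 8.16 in untreated cells, and 8.23 and 8.19 after 10 h. Meox1, Ccn3, Rab39b, Il1rl2, Gsdme and Nectin2 averaged lower in knock-out in both conditions. Lcn8, an epididymal lipocalin gene, had low signals of 3.87, 3.91 and 3.74 in knock-out against 4.12, 4.26 and 4.28 in wild type.

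**Figure D1:**
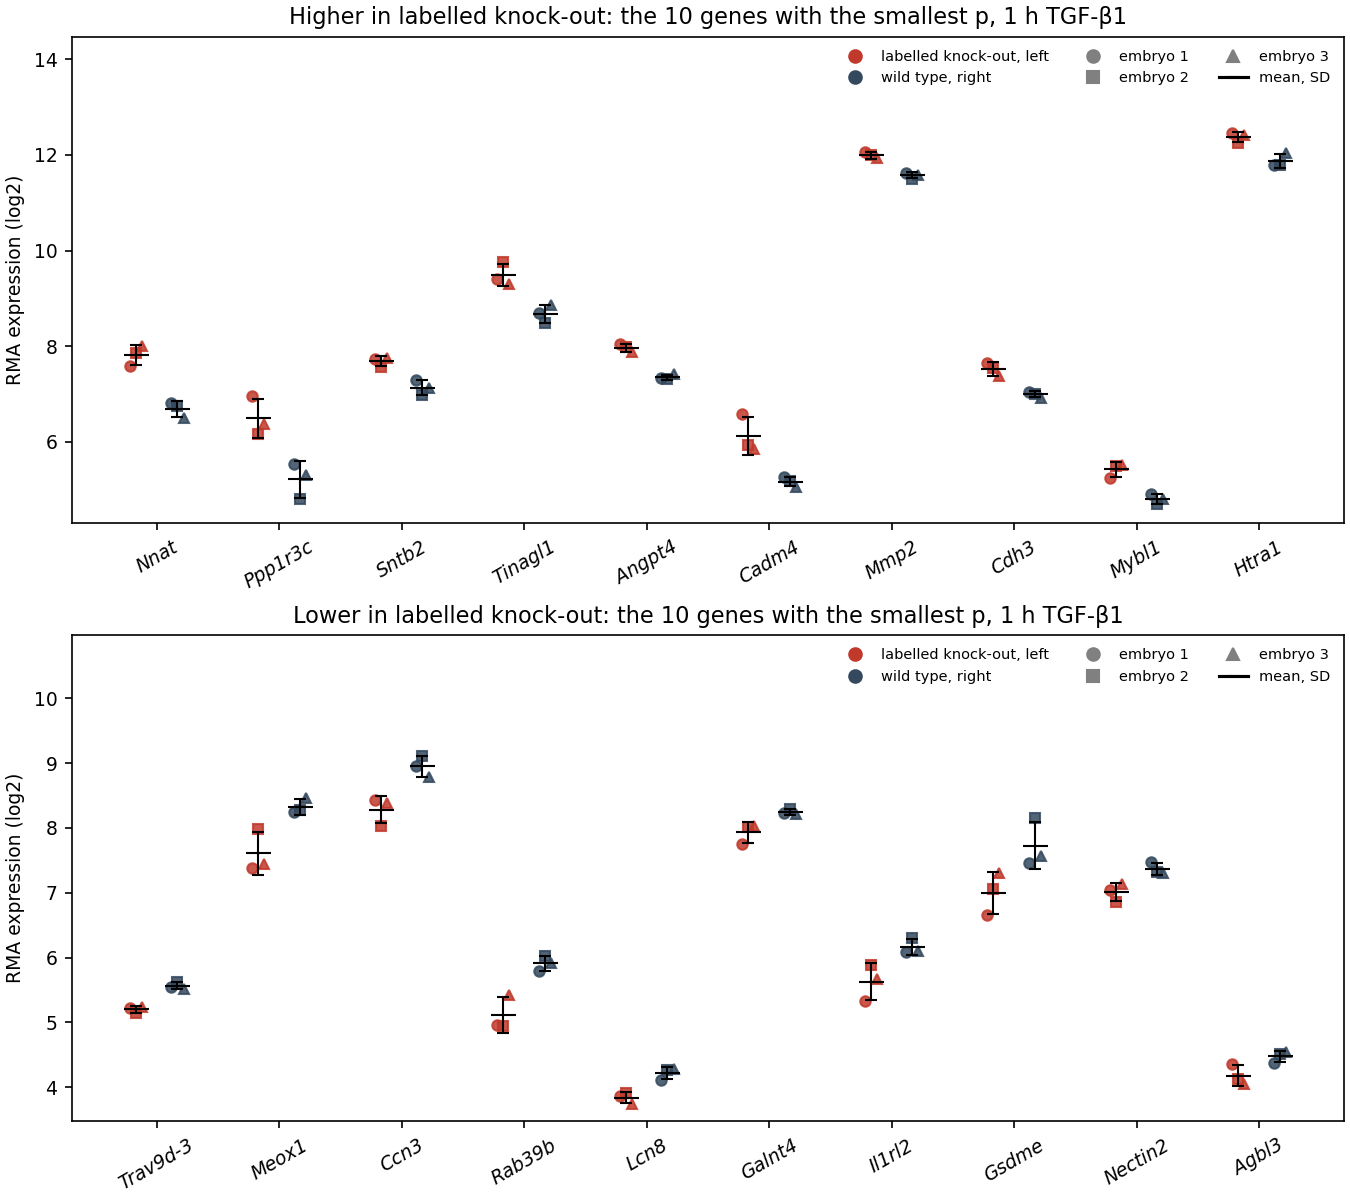
RMA expression in log2 units (vertical axis) of the 10 genes that were higher and the 10 that were lower in knock-out with the smallest p-values, after 1 h of TGF-β1. Points are the 3 arrays labelled knock-out, left, and the 3 wild-type arrays, right, of each gene, and bars are mean and SD. The points of each pair do not overlap, as for Nnat with 7.60 to 8.0 in knock-out and 6.50 to 6.81 in wild type, yet no gene passed the adjusted test.

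The largest downward differences by size were of another kind, with wide and overlapping groups. Tent5c, a gene for a poly(A) polymerase, read 4.52, 3.85 and 4.02 in knock-out and 6.49, 5.20 and 4.28 in wild type (-1.19 ± 0.39). Csf2rb2, a cytokine receptor subunit gene of blood cells, read 4.60, 3.99 and 4.12 in knock-out and 6.88, 4.80 and 4.33 in wild type (-1.10 ± 0.68). Wild-type embryo 1 was the highest in both. Pf4, Mrc1, Cd48, Cxcr4, Ctla2b and Cd53, most of them known from blood cells, completed the 8 lowest, and Mrc1, the mannose receptor gene of macrophages, read 8.86, 6.47 and 7.32 in knock-out and 9.70, 7.57 and 8.21 in wild type.

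Mrc1 and Cd53 are themselves on the list of macrophage and leukocyte markers. Tent5c averaged 4.01 in knock-out and 3.98 in wild type in untreated cells, and its second probe set differed by 0.03 at 1 h. All 23 tested markers were lower in knock-out, with a median difference of -0.59 against a median of -0.0048 over all tested genes, yet in 0 of 23 did the groups separate and 0 reached an unadjusted p under 0.05. The list mean was 9.16, 7.65 and 8.03 log2 units in knock-out and 9.91, 8.46 and 8.32 in wild type. Of 24 markers on the array, Cd163 did not pass the filter on low values. Between cultures of the same number, which come from different embryos and were not paired, the list mean differed by -0.74, -0.81 and -0.29. The list median was -0.60 in untreated cells and -0.60 after 10 h, in cultures of the same embryos. Embryo 1 was the highest of its genotype for 23 of 23 markers in both genotypes. The list median was -1.08 without knock-out embryo 1, -0.28 without knock-out embryo 2, -0.90 without wild-type embryo 3 and -0.09 without wild-type embryo 1. In such bulk samples, fewer cells of a type and less RNA per cell cannot be told apart. Of the chemokine and inflammation genes 19 of 22 tested were lower, with a median of -0.16, where 51.3% of all genes were lower. In 2 of them the knock-out cultures lay wholly below, which is near the 6.11% of all genes. The median of this chemokine list was 0.03 in untreated cells and 0.85 after 10 h. Its list mean at 10 h was 9.90, 7.06 and 7.05 in knock-out and 7.26, 7.03 and 7.06 in wild type. Ccl9, a chemokine gene, read 9.25, 8.42 and 8.19 in knock-out and 9.91, 8.77 and 8.50 in wild type. The part of macrophages in these differences was not tested.

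The genes through which fibroblasts receive TGF-β showed small differences in either direction. Among 21 ligands, receptors and latency proteins the median difference was -0.02, and 2 stood wholly above (Tgfb3 and Acvr1) and 1 wholly below (Acvr2a), against 8.19% and 6.11% of all genes. Tgfb1 itself read 8.46, 8.30 and 8.45 in knock-out and 8.53, 8.49 and 8.26 in wild type (-0.02 ± 0.19). The signalling receptor genes Tgfbr1 and Tgfbr2 differed by -0.11 ± 0.17 and 0.04 ± 0.13. The activin receptor gene Acvr2a read 8.18, 8.49 and 8.49 in knock-out and 8.63, 8.75 and 8.57 in wild type (-0.26 ± 0.11). Its second probe set differed by -0.07 ± 0.20, with overlapping groups. Of 17 SMAD proteins and regulators, Smad3 stood wholly above, at 9.26, 9.31 and 9.31 in knock-out against 9.07, 9.07 and 9.13 in wild type (0.20 ± 0.09), and the ubiquitin ligase gene Smurf2 wholly below (-0.13 ± 0.11). The difference for Smad2 was 0.02 ± 0.16. Smad1, which carries BMP signals, differed by -0.44 ± 0.20 on its brightest probe set and by -0.03 on the mean of its probe sets.

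The early targets of TGF-β, read 1 h after its addition, showed no difference that passed the test. Over the 20 tested SMAD feedback and early target genes the median difference was -0.03, with 1 of them wholly above in knock-out (Ldlrad4, 0.19 ± 0.09) and 0 wholly below, against 8.19% and 6.11% of all genes. Smad7, the inhibitory SMAD, read 8.87, 8.68 and 8.97 in knock-out and 8.91, 8.92 and 8.89 in wild type, a difference of -0.07 ± 0.10 with a 95% interval of -0.28 to 0.15. Skil, a SMAD corepressor gene, differed by -0.17 ± 0.14, and Ccn2, the connective tissue growth factor gene, by -0.04 ± 0.13. Rasl11b, a small GTPase gene, read 11.48, 11.69 and 11.47 in knock-out and 11.47, 11.64 and 11.52 in wild type (interval -0.40 to 0.41). The differences for Snai1, a repressor of epithelial genes, and for Id1, an inhibitor of helix-loop-helix factors, were -0.02 ± 0.17 and 0.27 ± 0.22. Klf10, a TGF-β-inducible zinc finger gene, read 9.63, 9.58 and 9.80 in knock-out and 9.77, 10.09 and 10.09 in wild type (-0.31 ± 0.14; unadjusted p = 0.0458, adjusted p = 0.803 by limma). The intervals of Smad7, Skil and Ccn2 lay within 0.5 log2 units of 0, and intervals of this width leave room for smaller differences. Those of Id1, on the upper side, and Klf10, on the lower side, reached beyond 0.5 log2 units.

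Of 29 tested immediate early genes, which serum and growth factors switch on within the hour, 1 stood wholly above in knock-out (Nr4a2) and 3 wholly below (Klf4, Egr2 and Csrnp1), with a median of -0.10. These counts are near the 8.19% above and 6.11% below over all genes and say nothing particular about the list. Egr2, a zinc finger factor gene, read 9.26, 9.08 and 9.12 in knock-out and 9.77, 9.36 and 9.38 in wild type (-0.35 ± 0.17). Klf4, a Krüppel-like factor gene, read 8.90, 8.87 and 9.11 in knock-out and 9.35, 9.36 and 9.36 in wild type (-0.40 ± 0.15), and it differed by -0.27 and -0.42 in untreated and 10 h cells. The orphan receptor gene Nr4a2 differed by 0.32 ± 0.13 on its brightest probe set and by -0.12 on the mean of its probe sets.

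**Figure D2:**
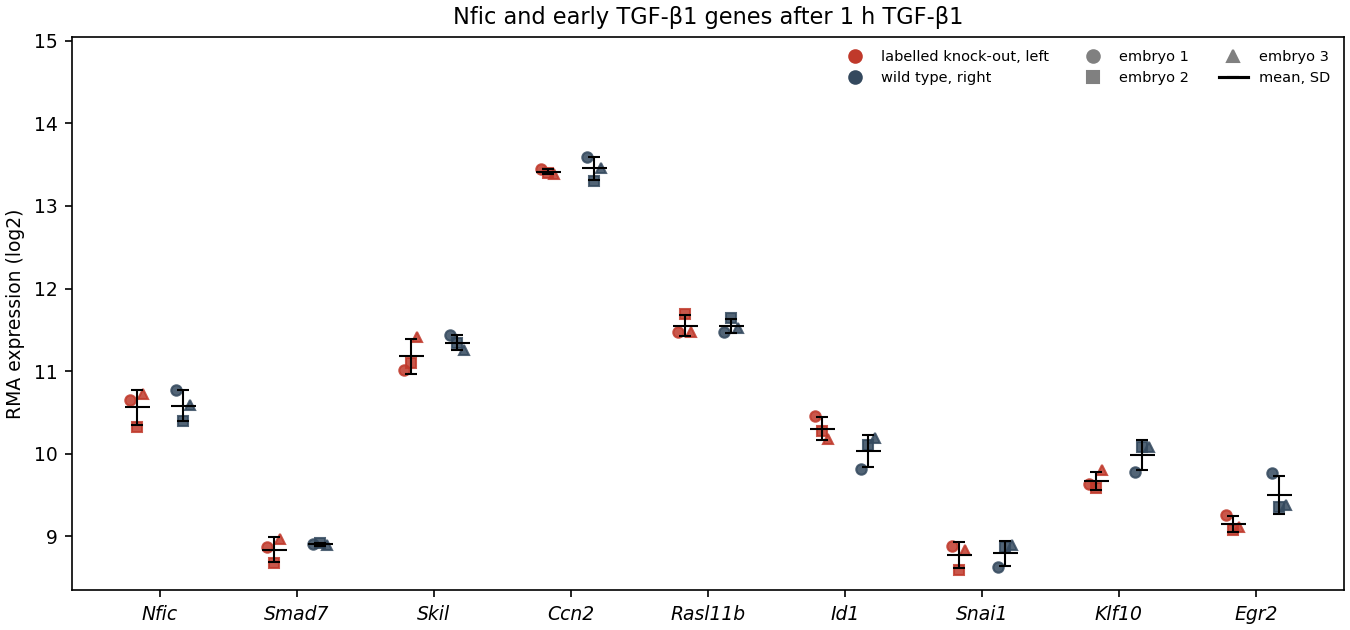
RMA expression in log2 units (vertical axis) of Nfic and early TGF-β1 genes after 1 h of TGF-β1. Points are the 3 arrays labelled knock-out, left, and the 3 wild-type arrays, right, of each gene, and bars are mean and SD. The pairs lie at the same height for Nfic (-0.02), Smad7 (-0.07) and Ccn2 (-0.04), and the Egr2 points do not overlap.

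Among the 8 PDGF ligand and receptor genes, whose products drive fibroblast growth and migration, Pdgfra showed the largest difference. It read 7.96, 8.04 and 8.39 in knock-out and 8.59, 8.59 and 9.29 in wild type, which is -0.69 ± 0.29 (1.62-fold lower; unadjusted p = 0.0286, adjusted p = 0.780 by limma). All knock-out cultures lay below all wild-type cultures. Leaving out single cultures moved the difference between -0.82 and -0.46. The ligand gene Pdgfc stood wholly above in knock-out, at 10.83, 10.85 and 10.91 against 10.57, 10.65 and 10.63 in wild type (0.25 ± 0.11). Pdgfa, Pdgfb and Pdgfrb differed by -0.05 ± 0.16, 0.27 ± 0.51 and -0.17 ± 0.12. The cyclin-dependent kinase inhibitor gene Cdkn1a stood above without overlap, at 11.93 to 12.09 in knock-out against 11.74 to 11.92 in wild type (0.18 ± 0.09). Its list of 17 growth arrest genes had 12 higher, 2 wholly above and 0 wholly below, with a median of 0.13. Over all tested genes 48.7% were higher, 8.19% stood wholly above and 6.11% wholly below.

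Matrix genes were mixed in direction. Of 32 matrix glycoprotein and protease genes 6 lay wholly above (Mmp2, Emilin1, Timp1, Fbln1, Fn1 and Sparc) and 1 wholly below (Postn), with a median of 0.01, where 8.19% of all genes lay wholly above and 6.11% wholly below. Emilin1, an elastic fibre glycoprotein gene, read 10.04, 10.07 and 10.02 in knock-out and 9.54, 9.45 and 9.74 in wild type (0.47 ± 0.14). Postn, the periostin gene, read 12.71, 13.05 and 13.03 in knock-out and 13.24, 13.34 and 13.20 in wild type (-0.33 ± 0.14). Mfap4, a microfibril-associated glycoprotein gene, differed by -0.69 ± 0.30 with overlapping groups. Of 21 collagen genes 16 were higher in knock-out with a median of 0.09, 3 of them without overlap (Col11a1, Col1a2 and Col5a2), and Col6a3 stood wholly below. Fn1, Sparc, Col1a2 and Col5a2 read between 13.71 and 14.13 here, close to the top of the signal range at 14.47. Col11a1, a fibrillar collagen of cartilage, read 11.95, 11.85 and 11.99 in knock-out and 11.68, 11.47 and 11.41 in wild type (0.41 ± 0.10), though the mean of its probe sets differed by 0.24. Col1a1, the main collagen of fibroblasts, and Acta2, the smooth muscle actin gene of myofibroblasts, differed by 0.00 ± 0.11 and 0.01 ± 0.07 at levels between 13.73 and 14.05, near the same top of the range. Their dimmer probe sets differed by 0.20 ± 0.35 for Col1a1 and by 0.32 ± 0.44 and 0.36 ± 0.29 for Acta2. In the list of 15 cartilage, bone and tendon genes 4 stood wholly above, led by the cartilage collagen gene Col2a1 at 9.68, 9.66 and 10.55 in knock-out against 9.35, 8.53 and 9.35 in wild type (0.89 ± 0.34), and 1 stood wholly below (Alpl, -0.07 ± 0.10), again beside 8.19% and 6.11% of all genes.

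Sterol synthesis genes, which are controlled together by the transcription factor SREBP2, were lower in knock-out in 19 of 20 tested, though none passed the adjusted test. The median difference was -0.41, and 5 of the 20 reached an unadjusted p under 0.05, all lower, against 2.64% of all genes. In 6 genes all knock-out cultures lay below all wild-type cultures, against 6.11% of all genes, namely Insig1, Stard4, Sqle, Dhcr7, Hmgcs1 and Srebf2. Stard4, a cholesterol carrier gene, read 7.35, 7.35 and 7.38 in knock-out and 7.88, 7.99 and 7.82 in wild type (-0.54 ± 0.15). Insig1, whose product holds SREBP back in the endoplasmic reticulum, read 7.28, 7.97 and 7.95 in knock-out and 8.25, 8.63 and 8.27 in wild type (-0.65 ± 0.22). The squalene epoxidase gene Sqle differed by -0.52 ± 0.21 and Dhcr7, the gene of the last step to cholesterol, by -0.46 ± 0.14. The list mean was 8.53, 8.95 and 8.63 in knock-out and 8.86, 9.34 and 9.05 in wild type, so knock-out culture 2 stood above wild-type culture 1. Between cultures of the same number, which come from different embryos and were not paired, the list mean differed by -0.33, -0.39 and -0.42. Without wild-type embryo 2 the median was -0.26. In untreated cells the list median was -0.40 and after 10 h -0.44, in cultures of the same embryos. Of the 19 tested fatty acid and adipogenic genes, 15 were lower with a median of -0.15, and Fabp4, a fatty acid carrier gene, was the 1 that stood wholly below (-0.54 ± 0.30).

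**Figure D3:**
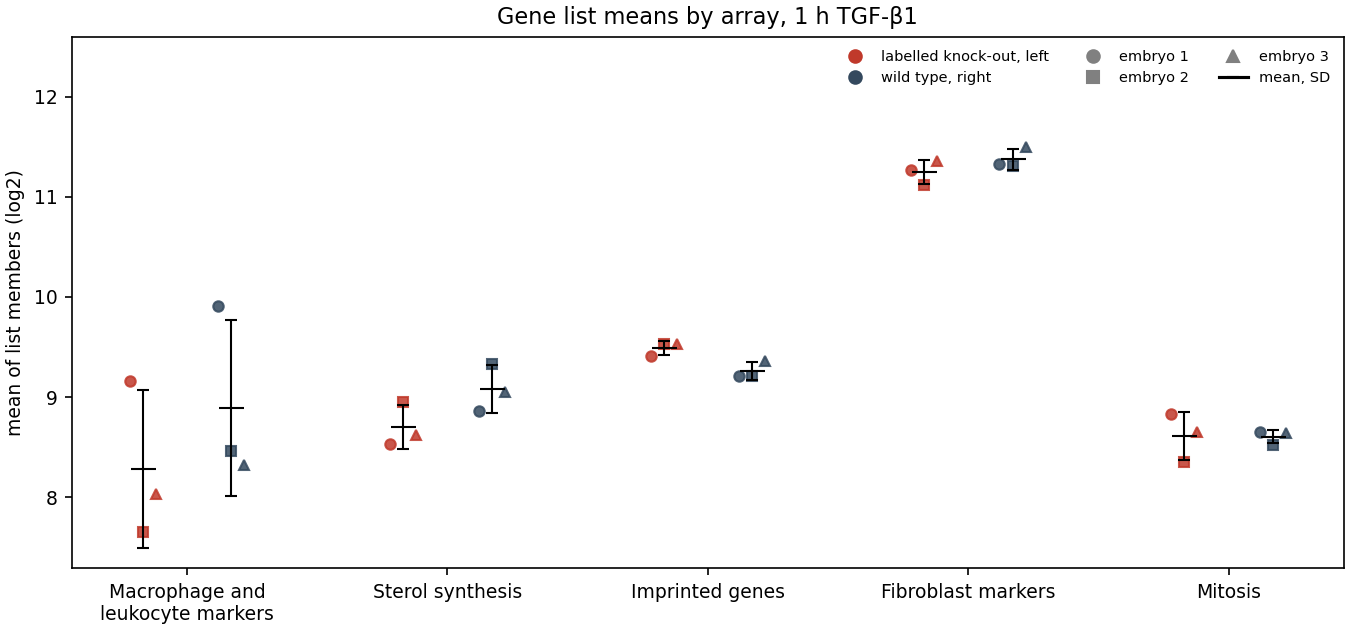
Mean log2 level of the tested members of selected gene lists (vertical axis) on each of the 6 arrays after 1 h of TGF-β1, with arrays labelled knock-out left and wild-type arrays right. The macrophage list spreads from 7.65 to 9.16 in knock-out and from 8.32 to 9.91 in wild type, while the sterol list lies between 8.53 and 8.95 in knock-out and between 8.86 and 9.34 in wild type.

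Imprinted genes, which are expressed from the copy of 1 parent, were higher in knock-out in 13 of 18 tested with a median of 0.18, and in 4 of them the groups did not overlap (Nnat, Igf2r, Magel2 and Zim1). Over all tested genes 48.7% were higher and 8.19% stood wholly above. Igf2r, the receptor gene that clears IGF2, read 10.91, 11.27 and 10.62 in knock-out and 10.24, 10.44 and 10.28 in wild type (0.62 ± 0.26), but the mean of its probe sets differed by 0.30. Cdkn1c, an imprinted cell cycle inhibitor gene, differed by 0.65 ± 0.29 with overlapping groups. Nnat lies within the gene Blcap on chromosome 2 in the RefSeq table, and Blcap read 8.48, 8.62 and 8.68 in knock-out and 8.44, 8.45 and 8.45 in wild type (0.14 ± 0.09). Of 27 tested Hox genes, which set position along the body axis, 20 were higher with a median of 0.12, and 1 stood wholly above: Hoxb6, at 8.16, 8.31 and 8.25 in knock-out against 7.99, 7.83 and 7.91 in wild type (0.33 ± 0.12).

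The remaining lists are set beside the 8.19% of all genes that stood wholly above and the 6.11% wholly below. The interferon response (24 tested), DNA replication (18), mitosis (19) and skeletal muscle (8) lists held 0 genes whose groups did not overlap, with medians of 0.02, -0.09, 0.00 and 0.06. The 20 contractile and cytoskeletal genes had 2 wholly above and 3 wholly below, with a median of 0.05. Of the 7 tested erythroid markers all were lower, where 51.3% of all genes were lower, with a median of -0.15. In 2 of them the knock-out cultures lay wholly below (Epor, -0.29 ± 0.10, and Epb42, -0.18 ± 0.10). Epb42 averaged 3.97 in knock-out and 4.15 in wild type, below the 40th percentile of these arrays (4.17 to 4.22). Epor stood wholly above in untreated knock-out cells (0.34). The erythroid list mean was between 5.04 and 5.12 in knock-out and between 5.18 and 5.29 in wild type. A change in the number of erythroid cells was not tested. Of the 10 tested endothelial markers 1 stood wholly above and 1 wholly below (Flt1, a VEGF receptor gene, -0.43 ± 0.16), and the list mean was between 4.78 and 4.84 in knock-out and between 4.80 and 4.91 in wild type. Of the 10 tested neural and glial markers 1 stood wholly above (Nes, 0.19 ± 0.11). Of 27 secreted growth factor genes 4 stood wholly above, Angpt4 among them, and 1 wholly below (Fgf21, a metabolic hormone gene, -0.36 ± 0.15). Of 19 glycolysis and hypoxia genes 2 stood wholly above, and of 16 clock genes 1 wholly below. The 13 tested epithelial markers had 2 wholly above and 2 wholly below. Perp, a desmosome gene of that list, read 7.46, 7.58 and 7.92 in knock-out and 6.66, 7.11 and 7.29 in wild type (0.63 ± 0.16).

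**Figure D4:**
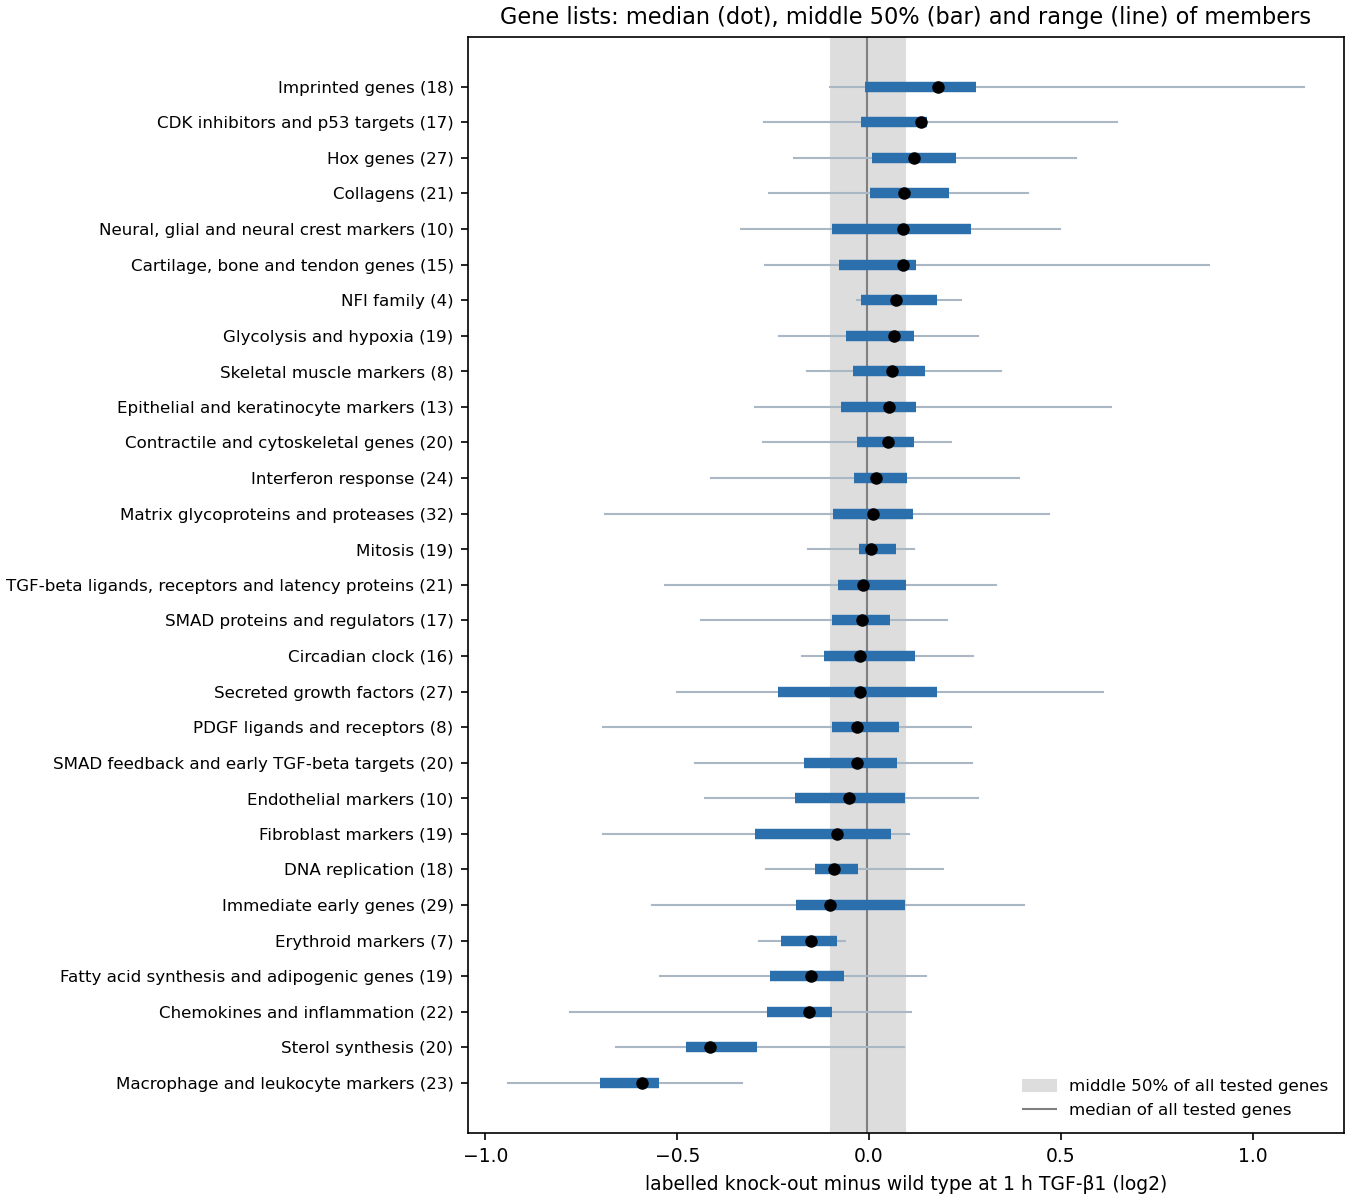
Knock-out minus wild type after 1 h of TGF-β1 in log2 units (horizontal axis) for the tested members of each gene list, whose number is in brackets. Dots are medians, thick bars the interquartile range and thin lines the range of the members. The macrophage (-0.59) and sterol (-0.41) lists lie farthest from 0, and the SMAD feedback list (-0.03) lies near it.

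The 1 h comparison was set beside the same genotypes in untreated cells and after 10 h. In a linear model 0 of 13679 genes had a genotype difference at 1 h that differed from that in untreated cells (233 at an unadjusted p under 0.05, 1.70%; smallest adjusted p 1.00 by limma). Against 10 h there were likewise 0 (367 at that p, 2.68%; smallest adjusted p 0.626). Neither test used the link between the arrays of 1 embryo, so both may be conservative. The groups did not overlap in 14.3% of genes at 1 h, 7.93% in untreated cells and 7.60% after 10 h. Across genes the knock-out minus wild-type differences at 1 h correlated with those in untreated cells at r = 0.51 and with those at 10 h at r = 0.37. These values share embryos, and genes are not independent replicates.

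Ppp1r3c showed the smallest p of the comparison with 10 h. Without TGF-β1 its mean was 7.86 ± 0.27 in knock-out and 6.97 ± 0.11 in wild type. It was 6.50 ± 0.41 in knock-out and 5.22 ± 0.38 in wild type after 1 h, and 4.08 ± 0.17 in knock-out and 4.46 ± 0.22 in wild type after 10 h (SD, n = 3 each). The genotype difference was 0.89, 1.28 and -0.38 at these times. The 10 h levels lay near the 40th percentile of those arrays (4.21 to 4.25), where the filter on low values was set, and a second Ppp1r3c probe set averaged 4.26 in knock-out and 4.21 in wild type at 10 h, so no direction is read there. At 1 h the second probe set differed by 0.58. The difference at 1 h minus that at 10 h was 1.66 ± 0.30, which did not pass the adjusted test (adjusted p = 0.626 by limma). With no treatment, 1 h and 10 h taken in turn, Nnat differed by 0.77, 1.13 and 0.88, Tinagl1 by 0.60, 0.81 and 0.56, and Pdgfra by -0.74, -0.69 and -0.83. Sesn3 differed by 0.03, 0.97 and 0.23, and Sntb2 by 0.21, 0.56 and -0.01. None of the differences between times passed the adjusted test for these genes.

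Of the 1120 genes that stood wholly above at 1 h, 29 also did so in untreated cells and after 10 h, and of the 836 wholly below, 28 did so, which is 0.212% and 0.205% of the tested genes. Among them were Nnat, Blcap, Tinagl1, Mmp2, Htra1, Perp, Chodl and Col11a1 above and Meox1, Ccn3, Insig1, Stard4 and Acvr2a below. Others, picked after their values were seen, were Clca3a1, which read 7.64, 8.06 and 7.66 in knock-out and 6.77, 6.98 and 7.11 in wild type at 1 h, and the proline hydroxylase gene P4ha2 (0.43 ± 0.12) above. Below were the serine synthesis gene Psph (-0.27 ± 0.10) and the amino acid transporter genes Slc7a1 (-0.25 ± 0.08) and Slc1a5 (-0.35 ± 0.13). The 3 cultures of an embryo count once in such a comparison, so each of these genes rests on 3 knock-out and 3 wild-type embryos.

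**Figure D5:**
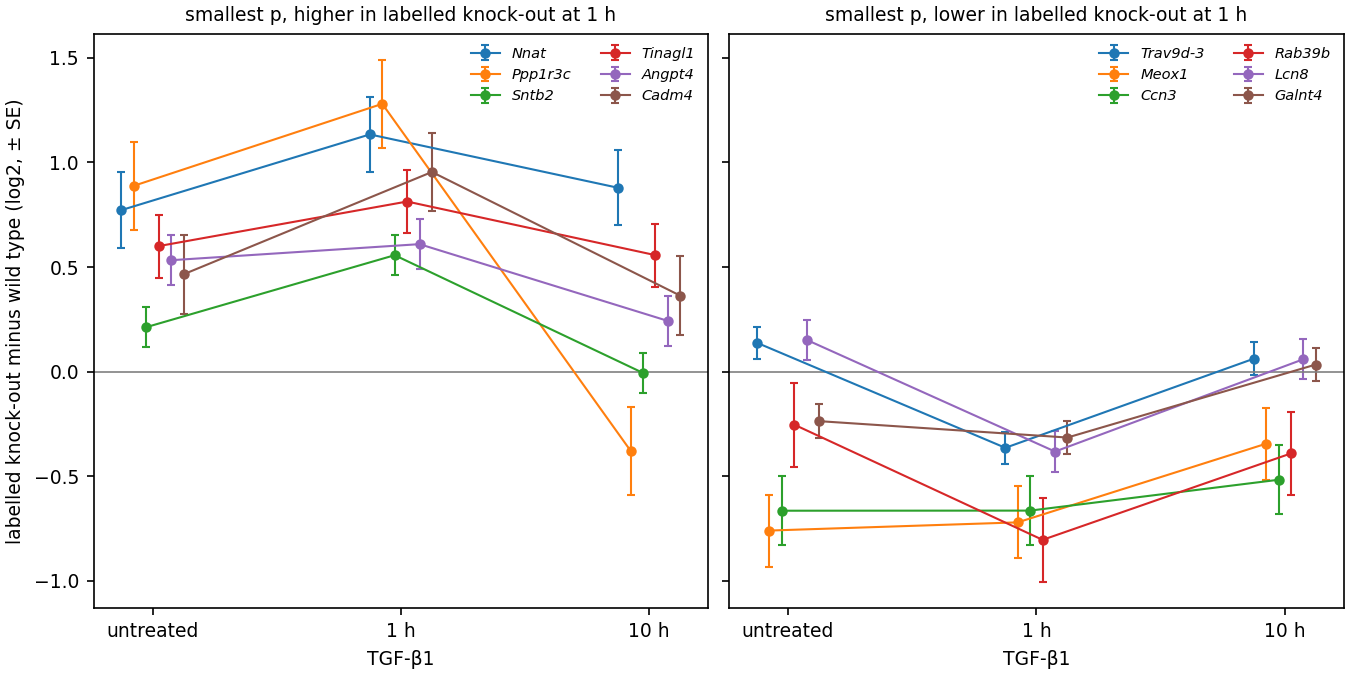
Knock-out minus wild type in log2 units (vertical axis, with SE) in untreated cells, after 1 h and after 10 h of TGF-β1 (horizontal axis), for genes higher (left panel) and lower (right panel) in knock-out at 1 h. Nnat stays above 0 in each condition (0.77, 1.13 and 0.88) and Ppp1r3c lies at 0.89, 1.28 and -0.38, the last from signals near the 40th percentile. In the right panel Trav9d-3 and Lcn8 lie above 0 in untreated cells and after 10 h, and Galnt4 after 10 h.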

How the data were processed

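The 18 arrays hold total RNA of fibroblasts from 3 embryos per genotype, each untreated, after 1 h and after 10 h of TGF-β1. The authors deposited log2 values, for which the submitters' processing notes name RMA without a version. RMA models background and equalizes the distributions of the arrays, so a shift of all genes cannot be seen. Of 45101 probe sets, 34958 carry 1 gene symbol in the platform table, 932 several and 9211 none, and 34754 of the first matched RefSeq. The probe set with the highest mean over 18 arrays stood for a gene. Genes above the 40th percentile on at least 3 arrays entered limma (version 3.58.1, R 4.3.3): 1 linear model over 18 arrays and 6 groups, empirical Bayes moderation and Benjamini-Hochberg adjustment. The procedure was checked on simulated data with independent noise on each array, which does not cover a link between arrays of an embryo. The number of arrays limits the precision.

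The numbers 1 to 3 name different embryos in the 2 genotypes, so knock-out and wild-type arrays were not paired by number. Each embryo gave an untreated, a 1 h and a 10 h array, and the main model used no block for the embryo either. Deviations of same-numbered arrays from their group means at 1 h nevertheless correlated at 0.47, 0.49 and 0.10. The source of that pairing is the data, not the labels.

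Named genes were the 10 higher and 10 lower by p, the 8 highest and 8 lowest by difference, up to 4 members per list by p, a hand-written set, and the 5 smallest p of each comparison between times. Other list members are named where their groups did not overlap. The comparison, lists and genes were chosen with earlier results of these data known.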

Additional observations from a re-analysis of the deposited data

How the results depend on the processing

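The count of genes past an adjusted p of 0.05 at 1 h was 0 with no filter, a stricter filter, quantile normalization, median centring, the mean of all probe sets, every probe set singly, the embryo as a random block, only the 1 h arrays, and without each embryo in turn (0 to 0, with 587 to 1174 genes at an unadjusted p under 0.05). With only the 1 h arrays, unpaired, the smallest adjusted p was 0.577 by limma, against 0.120 in the main fit. Paired analysis, with the replicate number as a block, also gave 0 genes (927 at an unadjusted p under 0.05; smallest adjusted p 0.110), 0 with only the 1 h arrays (1559; smallest adjusted p 0.0986), and it changed no other call. Weighting arrays by quality gave 9 genes, all higher in knock-out: Nnat, Ppp1r3c, Sntb2, Tinagl1, Angpt4, Cadm4, Mmp2, Cdh3 and Kcnmb4, at adjusted p between 0.0273 and 0.0476, with 1456 genes at an unadjusted p under 0.05. The weights at 1 h were 1.51, 0.990 and 0.908 in knock-out and 1.30, 0.991 and 2.11 in wild type; the cause was not tested. The 2 comparisons between times gave 0 genes in every setting tried. Taking the mean of a gene's probe sets moved 31 of 159 named genes, and 23 recomputed list medians moved by more than the spread between arrays under 1 setting or another. With 3 arrays per group, an exact permutation test of 1 gene cannot go below p = 0.1.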
